A study of Mus musculus with 16 samples.

Results

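The genes described here encode the enzymes that make serine, one-carbon units and nucleotides, read in mouse OT-1 T cells with and without Lck. They were chosen as 39 named genes whose symbol matched the gene name of a probe on the arrays, out of 22328 genes named there. By step, 8 belong to serine and one-carbon metabolism, 14 to purine synthesis and salvage, 6 to pyrimidine synthesis and 11 to the making of deoxynucleotides (dNTPs). All 39 had a probe, 19 of them had several, and each gene is read here through its brightest probe unless another is named. The receptor of OT-1 T cells is a transgene that recognises SIINFEKL, a peptide of ovalbumin. The labels give the OT-1 transgene as heterozygous and every sample as Rag-/-, so that endogenous receptors are not rearranged. The comparison is between 4 WT extracts and 4 Lck-/- extracts, Lck being the kinase that starts signalling from the T cell receptor. The series title adds the word OFF to the Lck-/- group, which the labels do not explain, and ages are not given. Lymph node cells of both genotypes were cultured with 100 nM peptide for 24 h and with 100 µg/ml cycloheximide for 10 min before harvest. Lysates were run on sucrose gradients of 10% to 50%. Fractions 1 to 5 were pooled as the sub-polysomal RNA and fractions 6 to 10 as the polysomal RNA. Both pools of an extract were hybridised to the same 2-colour array, and again with the dyes exchanged, which gives 16 arrays for 8 extracts.

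As background, serine is made from a glycolytic intermediate by Phgdh, Psat1 and Psph, and the Shmt enzymes pass its carbon to folate. Folate-bound carbon is used in the purine ring and in thymidylate, so that these pathways meet in cells that replicate DNA. Purines are built on phosphoribosyl pyrophosphate (PRPP), pyrimidines are completed by Umps and Ctps, and ribonucleotide reductase turns ribonucleotides into dNTPs. Activated T cells are known to raise these enzymes before they divide. mRNAs engaged by several ribosomes sediment in the polysomal pool, and those with few or none stay in the sub-polysomal pool.

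A level is given as log2 of the normalised signal of a pool, the mean level as the average of both pools, and the ratio as log2 of polysomal over sub-polysomal signal. Levels were not compared between genes, since probes differ in brightness. Differences are Lck-/- minus WT with their standard error (SE), n = 4 extracts per genotype, tested with limma over all genes. A gene is called where its Benjamini-Hochberg adjusted p is below 0.05. As the labels do not say whether the 4 replicates came from separate mice, the p-values measure the spread between these extracts, which may be technical.

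Several facts of the arrays bear on the values. The mean level of Lck itself was 15.0 ± 0.212 in WT and 14.2 ± 0.133 in Lck-/- (SD, n = 4 each; difference -0.855, SE 0.139, limma adjusted p = 0.00301), and whether its probe lies in the deleted part is not known here. Before normalisation the median ratio of an array pair averaged 1.34 ± 0.302 for WT and 0.52 ± 0.264 for Lck-/- (SD, n = 4 each). They differed by -0.819 (two-sided exact permutation p = 0.0286, the smallest that 4 against 4 allow). Normalisation within arrays removes that shift, so pool levels and ratios here are relative to the typical mRNA. Centring on the median in its place moved the median of all genes to -0.78 in the ratio difference, -0.31 in the polysomal and 0.36 in the sub-polysomal difference, and left the mean level as it was. The dye-swap array of WT 1 correlated with its labelled partner at -0.831 and that of WT 2 at -0.81, against 0.458 to 0.844 in the other 6 extracts. Exchanged between WT 1 and WT 2, these arrays correlated at 0.867 and 0.938 with the partner so obtained. Values below follow the labels, and adjusted p-values with these arrays exchanged are given as "crossed". The dye-swap array of WT 1 also had 315 of 1505 bright spots in its first 24 columns more than 2 log2 units under their median over all arrays (20.9%), against 0.133% or less on any other array. T cell markers (Cd3e, Cd3d, Cd3g, Cd8a, Cd8b1, Thy1, Cd5) were well above background on all arrays. The summed signal of the T cell list was 91950 to 114000 in WT and 102400 to 118400 in Lck-/-, and its genes did not move together. Cd5 was lower in Lck-/- (-0.63, SE 0.15, limma adjusted p = 0.015) and Thy1 higher (0.44, SE 0.13, adjusted p = 0.0364), and the other 5 were not called. The summed signal of 3 NK cell markers (Ncr1, Klrb1c, Klra8) was 315.1 to 379.9 in WT and 360.1 to 571.1 in Lck-/-. These 3 were dim, with mean levels of 6.65 to 7.13 in WT and 6.88 to 7.63 in Lck-/-, and none was tested. Ncr1 was above background on 3 WT and 6 Lck-/- arrays, Klrb1c on 5 and 6, and Klra8 on 7 and 8. Hba-a1, a haemoglobin gene of red cells, was at 7.67 ± 0.34 in WT and 8.69 ± 1.15 in Lck-/- (SD, n = 4 each; difference 1.03, SE 0.45, adjusted p = 0.122). The part of these markers in the results was not tested.

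Upstream sequences are shown for 5 genes of the level results below. Tk1, Adsl and Ctps2 were lower in Lck-/- in both pools, and Mthfd1 and Prps1 were called higher in the sub-polysomal pool and the mean level only. Each sequence is the 250 bases before the transcript start farthest upstream, from RefSeq on GRCm38.p6, where 37 of the 39 genes are listed and Pfas and Dhodh are not. The windows are chr11:117826015-117826264 on the minus strand for Tk1, and on the plus strand chr15:80948240-80948489 for Adsl, chrX:162901310-162901559 for Ctps2, chr12:76254982-76255231 for Mthfd1 and chrX:140456353-140456602 for Prps1. Capitals mark CCAAT, the box read by NF-Y, and TTCCCGC, a form of the E2F site, on either strand.
Tk1: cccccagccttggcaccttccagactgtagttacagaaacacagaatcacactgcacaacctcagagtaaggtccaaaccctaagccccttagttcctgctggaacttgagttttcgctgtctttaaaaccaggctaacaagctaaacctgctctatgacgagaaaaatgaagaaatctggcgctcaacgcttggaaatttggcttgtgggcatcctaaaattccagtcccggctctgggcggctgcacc
Adsl: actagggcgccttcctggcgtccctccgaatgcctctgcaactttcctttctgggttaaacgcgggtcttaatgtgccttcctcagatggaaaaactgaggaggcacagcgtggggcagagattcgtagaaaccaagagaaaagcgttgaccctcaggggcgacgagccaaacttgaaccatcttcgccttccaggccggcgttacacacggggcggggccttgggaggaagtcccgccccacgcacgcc
Ctps2: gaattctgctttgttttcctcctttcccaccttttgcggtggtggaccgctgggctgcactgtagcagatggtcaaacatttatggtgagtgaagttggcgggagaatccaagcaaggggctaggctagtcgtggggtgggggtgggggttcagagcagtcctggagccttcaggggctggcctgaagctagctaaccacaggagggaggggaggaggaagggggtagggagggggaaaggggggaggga
Mthfd1: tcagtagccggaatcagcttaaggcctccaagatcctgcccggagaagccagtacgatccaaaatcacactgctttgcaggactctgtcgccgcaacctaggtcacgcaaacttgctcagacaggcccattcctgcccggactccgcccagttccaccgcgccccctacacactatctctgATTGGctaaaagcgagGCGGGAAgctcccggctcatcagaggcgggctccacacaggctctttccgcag
Prps1: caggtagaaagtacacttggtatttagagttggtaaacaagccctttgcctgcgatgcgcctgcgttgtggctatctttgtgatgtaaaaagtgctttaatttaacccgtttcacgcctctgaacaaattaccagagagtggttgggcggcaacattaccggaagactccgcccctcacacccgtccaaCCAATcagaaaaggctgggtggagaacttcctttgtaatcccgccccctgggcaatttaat
The window of Mthfd1 holds 1 CCAAT box, read here as its reverse complement, and 1 TTCCCGC, also reversed, and that of Prps1 holds 1 CCAAT box. No match to these letters lies in the windows shown for Tk1, Adsl and Ctps2, which says nothing beyond these letters in these windows. Over the 37 genes, CCAAT was found in 14 windows (37.8%, against 34.5% of all 27025 genes listed), and TTCCCGC or TTGGCGC, searched on both strands, in 5 (13.5% against 5.74%). CACGTG, the E-box read by Myc, was found in 6 windows (16.2% against 6.04%), those of Paics, Atic, Impdh2, Tyms, Dtymk and Nme1. These are descriptions of letters and not of bound sites.

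The abundance of these mRNAs over both pools changed in 9 genes, 4 of them in the dNTP step. By mean level, 7 genes were lower in Lck-/- (Tk1, Ctps2, Adsl, Dck, Dut, Nme2 and Psph) and 2 were higher (Mthfd1 and Prps1) of 38 tested. Over all 9073 genes tested, 20.7% were called, 9.34% higher and 11.3% lower. The share among the 38 is thus close to that of all genes, and their median difference of 0.00 lay beside 0.04 for all genes. Dck and Cad passed the filter on dim probes through 1 genotype alone, and without them 6 of 36 were lower and 2 higher. In bulk RNA, fewer cells of a kind and less RNA per cell cannot be told apart. In each of the 9 genes the extracts of the genotypes did not overlap. Among all genes, 13.1% lay wholly lower and 12.8% wholly higher in Lck-/-. The difference of each of the 9 had the same sign on both slides and in both dye orientations. Each slide and orientation holds 1 array of every extract behind the call, so the signs add no independent support. Crossed, 7 of the 9 were called, beside 18.2% of all genes.

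By step, 4 of 10 dNTP genes tested were lower and none higher (median -0.25), or 3 of 9 (median -0.24) without Dck, which passed the filter only through WT, where it is higher. In the other steps, 1 of 14 purine genes was lower and 1 higher (0.08), 1 of 6 pyrimidine genes was lower (0.21), and in serine and one-carbon metabolism 1 of 8 was lower and 1 higher (0.17). In the polysomal pool, 6 of 39 genes were lower and none higher, beside 15% of all 10292 genes called (9.37% lower and 5.6% higher). The extracts of all 6 did not overlap, as in 13.1% of all genes that were wholly lower and 9.46% wholly higher, and crossed 5 of the 6 were called (6.77% of all genes). In the sub-polysomal pool, 4 of 38 were lower and 3 higher, beside 19.3% of all 9703 genes (10.8% lower and 8.54% higher). None of the 7 overlapped (12.5% of all genes were wholly lower and 13.4% wholly higher), and crossed 5 were called (10.9% of all genes). By the brightest probe, all 11 dNTP genes had a negative polysomal difference (median -0.35, from -0.81 to -0.08), 10 of 11 where Agilent's processed signals were used. Other probes of Nme1 gave 0.03 and 0.01. The polysomal median was 0.0902 in purine, 0.0426 in pyrimidine and 0.0005 in serine and one-carbon genes, and -0.0024 over all genes. The sub-polysomal median of the dNTP genes was -0.23, with 7 of 10 below 0. It turned to 0.30 with 7 of 10 above 0 when arrays were centred on the median. Centred in that way, 14 of the 39 were lower in the polysomal pool and none higher, beside 21.2% of all genes lower and 0.496% higher. In the sub-polysomal pool 17 were then higher and 1 lower, beside 36.6% of all genes higher and 3.4% lower. The 4 genes lower in the sub-polysomal pool kept their sign there, Adsl at -0.81 (adjusted p = 0.0172), Tk1 at -0.49 (0.115), Nme2 at -0.37 (0.303) and Ctps2 at -0.14 (0.447).

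**Figure D1:**
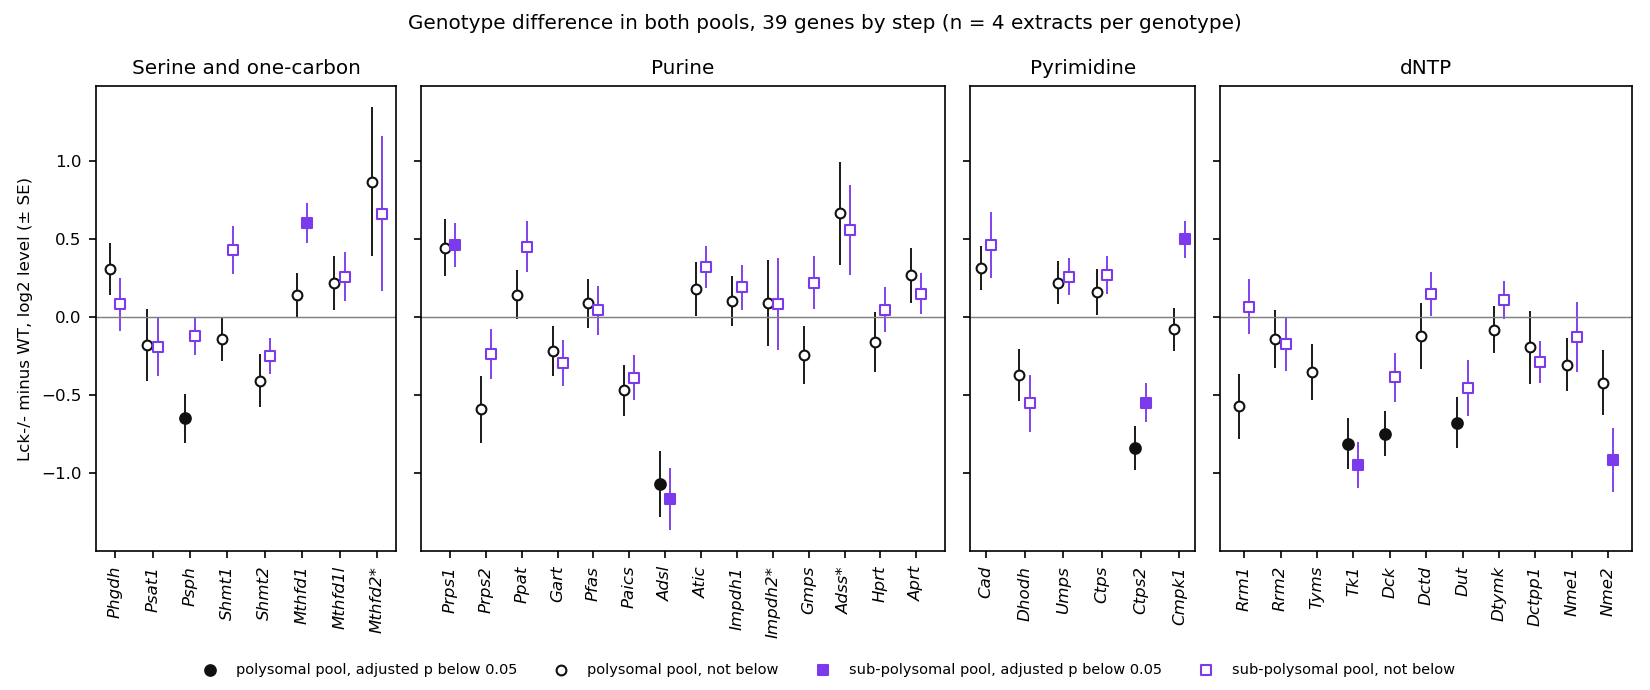
Difference in log2 level (Lck-/- minus WT, y axis) for each of the 39 genes (x axis) in the polysomal pool (circles) and the sub-polysomal pool (squares), with bars of 1 SE and filled symbols where the adjusted p is below 0.05. Filled symbols below 0 are Psph, Adsl, Ctps2, Tk1, Dck, Dut and Nme2, and those above 0 are Mthfd1, Prps1 and Cmpk1. An asterisk marks 3 genes whose spot in the low edge of the WT 1 dye-swap array was below every other array.

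In the dNTP step, Tk1 (thymidine kinase, the salvage enzyme of thymidine that is made in S phase) was lower in Lck-/- in both pools. Its polysomal level was 12.31, 12.37, 12.52 and 12.38 in WT extracts 1 to 4, and 11.98, 11.51, 11.42 and 11.44 in Lck-/- extracts 1 to 4. Its sub-polysomal level was 12.44, 12.54, 12.67 and 12.47 in WT, and 11.95, 11.45, 11.51 and 11.42 in Lck-/-. All 4 Lck-/- extracts lay under all 4 WT extracts in both pools, with Lck-/- 1 the highest of its group in each. The polysomal difference was -0.81 (SE 0.16, adjusted p = 0.00974, crossed 0.0363) and the sub-polysomal -0.95 (SE 0.15, adjusted p = 0.00282, crossed 0.0068). Over both pools Tk1 was 1.84-fold lower (-0.88, SE 0.14, adjusted p = 0.00308), and the call held crossed (0.00444), in each dye orientation alone (0.0234 and 0.0079) and without any 1 extract. A second, dimmer probe of Tk1 differed by -1.34, but it was above background in both pools on 7 WT arrays and only 2 of Lck-/-. As it passed the filter only through WT, where it is higher, it adds no independent support.

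Dck, the kinase that salvages deoxycytidine and the purine deoxynucleosides, was lower in the polysomal pool. Its polysomal level was 8.12, 8.18, 8.17 and 8.52 in WT and 7.45, 7.58, 7.48 and 7.50 in Lck-/- (difference -0.75, SE 0.15, adjusted p = 0.0084, crossed 0.0271). The Lck-/- extracts were tightly grouped and all below WT, but the probe was dim and well above background in the polysomal pool on 6 of the 8 Lck-/- arrays. The mean level was 8.08, 8.08, 8.13 and 8.52 in WT and 7.60, 7.81, 7.55 and 7.59 in Lck-/-, a difference of -0.56 (SE 0.14, adjusted p = 0.0167), and without Lck-/- 3 the adjusted p was 0.0525. For the mean level Dck passed the filter on dim probes through WT alone, with both pools above background on 7 WT and 4 Lck-/- arrays. As its spot lies in the low edge of the WT 1 array, the differences were also taken without those spots, at -0.67 in the polysomal pool (adjusted p = 0.0193) and -0.50 in the mean (0.0378).

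Dut, the dUTPase that keeps uracil out of DNA and supplies dUMP for thymidylate, had a polysomal level of 12.94, 13.02, 12.97 and 13.25 in WT and 12.51, 12.63, 12.17 and 12.16 in Lck-/-. No Lck-/- extract reached a WT extract, and Lck-/- 3 and 4 were the lowest. The difference was -0.68 (SE 0.16, adjusted p = 0.0201, crossed 0.0466), lost without WT 2, WT 4, Lck-/- 3 or Lck-/- 4 (adjusted p 0.054 to 0.0666). Averaged over both pools, Dut was at 12.79, 12.77, 12.69 and 13.15 in WT and 12.51, 12.46, 12.14 and 12.03 in Lck-/-, a difference of -0.56 (SE 0.15, adjusted p = 0.0269, crossed 0.0317), lost without the same 4 extracts (0.0549 to 0.0794). A dim second probe gave -0.39 (SE 0.18, adjusted p = 0.15 over all 11622 probes tested one by one), and it too passed the filter only through WT, with 6 WT and 5 Lck-/- arrays above background in both pools.

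Nme2, a nucleoside diphosphate kinase that forms triphosphates, was lower in the sub-polysomal pool. The level there was 15.78, 15.59, 15.74 and 15.92 in WT and 15.01, 15.39, 14.58 and 14.39 in Lck-/-, with Lck-/- 3 and 4 the lowest and no overlap. That difference was -0.92 (SE 0.20, adjusted p = 0.0116, crossed 0.0475), and the polysomal one was -0.42 (SE 0.21, adjusted p = 0.186). Averaged over both pools, Nme2 was at 15.84, 15.78, 15.82 and 16.04 in WT and 15.45, 15.62, 15.07 and 14.67 in Lck-/-, without overlap. The mean difference was -0.67 (SE 0.19, adjusted p = 0.0321, crossed 0.0345). It was lost without any 1 of the WT extracts, Lck-/- 3 or Lck-/- 4 (0.0506 to 0.0821). A second probe gave -0.52 (SE 0.15, adjusted p = 0.0333 over all probes). Nme1, its neighbour on chromosome 11 and a closely related kinase, had a mean difference of -0.21 (SE 0.18, adjusted p = 0.407), and its other probes lay at 0.21 and 0.12. Whether a probe of one gene also reads the other was not tested.

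The remaining dNTP genes were not called in any level. Rrm1, the large subunit of ribonucleotide reductase, had a polysomal difference of -0.57 (SE 0.21, adjusted p = 0.0826) and a sub-polysomal one of 0.07 (SE 0.18), and its partner Rrm2 had -0.14 (SE 0.18) and -0.17 (SE 0.17). Tyms, which makes thymidylate from dUMP, was dim, at a polysomal level of 7.70 ± 0.01 (SD, n = 4) in WT and 7.35 ± 0.35 in Lck-/- (adjusted p = 0.201), and was too dim in the sub-polysomal pool for a test. Dctd (dCMP deaminase) and Dctpp1 (which degrades dCTP) had mean differences of 0.02 (SE 0.16) and -0.24 (SE 0.16).

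Dtymk, thymidylate kinase, depended on the probe. Its brightest probe had a mean level of 12.42 in WT and 12.44 in Lck-/- (difference 0.02, SE 0.12, adjusted p = 0.936 over all probes). The other probe had 12.70 and 11.90 (-0.80, SE 0.12, adjusted p = 0.00247 over all probes). That second probe was lower in Lck-/- by a similar amount in both pools, at -0.78 (SE 0.16) in the polysomal and -0.81 (SE 0.14) in the sub-polysomal. The arrays give no test of which probe reads the mature mRNA. Of 17 further probes tested in the mean level, in 16 of the 39 genes, 9 had the sign of the brightest probe (7 of the 14 that passed in both genotypes), and 1, this one of Dtymk, lay more than 0.5 from it.

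In the pyrimidine step, Ctps2, which like Ctps makes CTP from UTP, was lower in both pools. Its polysomal level was 11.03, 10.91, 10.80 and 10.91 in WT and 9.97, 9.97, 10.22 and 10.13 in Lck-/-. Its sub-polysomal level was 10.93, 10.85, 10.84 and 10.86 in WT and 10.09, 10.51, 10.36 and 10.35 in Lck-/-. Every Lck-/- extract lay below every WT extract in each pool. The differences were -0.84 (SE 0.14, adjusted p = 0.0042, crossed 0.0189) and -0.55 (SE 0.13, adjusted p = 0.0146, crossed 0.0324). Over both pools Ctps2 was 1.62-fold lower (-0.69, SE 0.12, adjusted p = 0.00344, crossed 0.00535), and this call also held in each dye orientation alone (0.019 and 0.0151) and without any 1 extract.

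Ctps, the paralogue of Ctps2, went the other way by sign only, with a mean difference of 0.22 (SE 0.12, adjusted p = 0.221). Umps, which completes UMP, had 0.24 (SE 0.11, adjusted p = 0.137), but -0.15 by a dimmer second probe. Cad, which carries the opening steps of the pathway, had 0.39 (SE 0.15, adjusted p = 0.0898) from a dim probe that passed through Lck-/- alone. Dhodh, the mitochondrial step between them, had -0.46 (SE 0.16, adjusted p = 0.0609), and -0.09 by a dimmer second probe. By its brightest probe, the sub-polysomal difference of Dhodh was -0.55 (SE 0.18, adjusted p = 0.0551). Without the edge spots of the WT 1 array the adjusted p was 0.0474, while the difference itself did not change.

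Cmpk1, the kinase that turns CMP and UMP into diphosphates, rose in the sub-polysomal pool. The level there was 9.81, 9.67, 9.75 and 9.54 in WT and 10.25, 10.13, 10.14 and 10.25 in Lck-/-, all 4 Lck-/- extracts lying above WT (difference 0.50, SE 0.12, adjusted p = 0.0167, crossed 0.0476). In the polysomal pool it was 10.24, 10.01, 10.11 and 9.97 in WT and 9.97, 10.02, 9.98 and 10.05 in Lck-/-, where the groups overlapped (-0.08, SE 0.14, adjusted p = 0.736). Its mean level differed by 0.21 (SE 0.11, adjusted p = 0.205).

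In the purine step, Adsl, which acts both in the synthesis of IMP and in the step from IMP to AMP, had the most negative difference of the 39 genes in both pools. Its polysomal level was 9.61, 9.50, 10.31 and 9.54 in WT and 9.06, 8.51, 8.68 and 8.43 in Lck-/-. Its sub-polysomal level was 9.29, 9.33, 9.56 and 9.28 in WT and 8.61, 8.30, 8.32 and 7.58 in Lck-/-. WT 3 was the highest in both pools and the genotypes did not overlap. The sub-polysomal difference was -1.16 (SE 0.20, adjusted p = 0.00416, crossed 0.0111) and the polysomal -1.07 (SE 0.21, adjusted p = 0.00926). Crossed, the polysomal level of WT 1 became 8.42 and that of WT 2 became 10.69, so that the groups overlapped and the adjusted p was 0.117. The mean level was 2.17-fold lower (-1.12, SE 0.19, adjusted p = 0.0036, crossed 0.00806), and that call held in each dye orientation alone (0.0381 and 0.0125) and without any 1 extract.

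Prps1, one of the synthases of PRPP, was higher in Lck-/-. Its sub-polysomal level was 13.55, 13.57, 13.15 and 13.40 in WT and 13.80, 14.07, 13.75 and 13.91 in Lck-/-, without overlap (difference 0.46, SE 0.14, adjusted p = 0.0409, crossed 0.0998). The call was lost without WT 2, 3 or 4 or without Lck-/- 2, 3 or 4 (adjusted p 0.0592 to 0.0958). The mean level was 13.41, 13.46, 13.14 and 13.60 in WT and 13.84, 14.08, 13.67 and 13.84 in Lck-/- (0.46, SE 0.14, adjusted p = 0.0409, crossed 0.0495). It was lost without WT 1, 2 or 3 or without Lck-/- 2, 3 or 4 (0.0553 to 0.104). Prps2, the other PRPP synthase listed, had -0.41 (SE 0.17, adjusted p = 0.101).

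Of the other enzymes of IMP synthesis, Paics was the nearest to a call, with a mean difference of -0.43 (SE 0.14, adjusted p = 0.0501). Without the edge spots of the WT 1 array its adjusted p was 0.0443, while the difference itself did not change. Ppat, which commits PRPP to the pathway, had 0.30 (SE 0.15, adjusted p = 0.164), but -0.02 by a second probe. In RefSeq the transcript starts of Ppat and Paics lie 276 bases apart on chromosome 5, on opposite strands with overlapping ends. Gart, Pfas and Atic, which complete the ring, had -0.25 (SE 0.13), 0.07 (SE 0.14) and 0.25 (SE 0.14), with adjusted p of 0.167 or more. Gmps and Impdh1, on the way to GMP, had -0.01 (SE 0.15) and 0.15 (SE 0.13), and the salvage enzymes Hprt and Aprt had -0.05 (SE 0.16) and 0.21 (SE 0.14).

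In 3 genes with a spot in the low edge of the WT 1 dye-swap array, the level there was below every other array. The mean level of Mthfd2 on that array was 7.41, against 11.88 to 12.79 on the other 15, that of Adss was 8.62 against 10.71 to 12.08, and that of Impdh2 was 11.74 against 13.30 to 14.47. With all spots kept, the mean differences were 0.77 (SE 0.49) for Mthfd2, the mitochondrial folate dehydrogenase, 0.61 (SE 0.31) for Adss, which starts the step to AMP, and 0.09 (SE 0.28) for Impdh2, the enzyme that commits IMP to GMP. Without the edge spots they were 0.19 (SE 0.14, adjusted p = 0.366), 0.30 (SE 0.19, adjusted p = 0.27) and -0.21 (SE 0.16, adjusted p = 0.358). The WT SD of Mthfd2 went from 1.29 to 0.18. Cad, Dck, Hprt, Impdh1, Nme1, Shmt2, Tyms and Umps also had a spot in these columns, within the range of the other arrays. Without the edge spots the mean difference of Shmt2 was -0.28 (SE 0.13, adjusted p = 0.135). Of these genes only Dck was then called in a level.

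**Figure D2:**
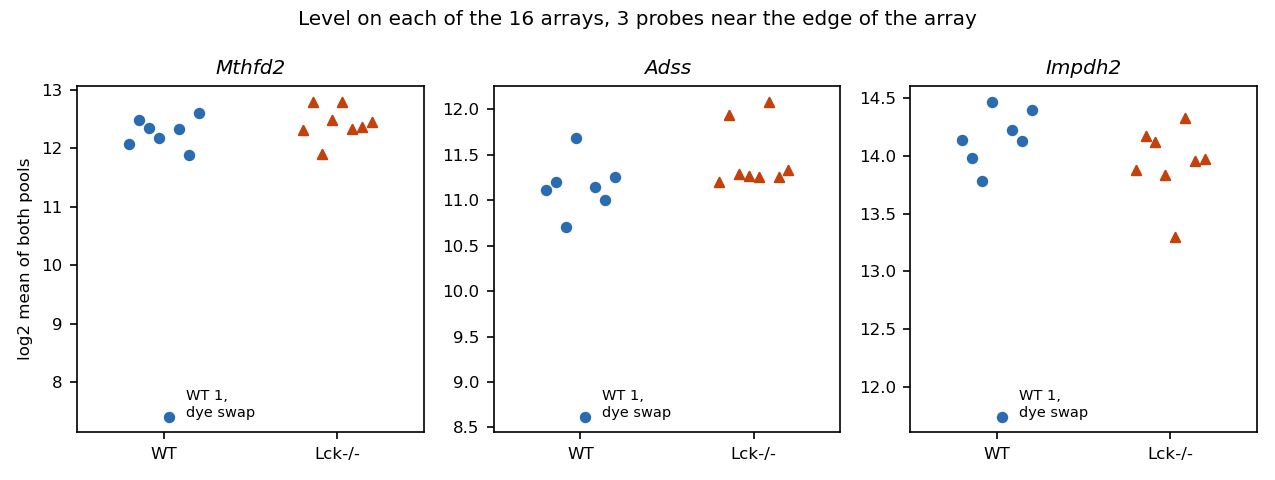
Mean log2 level of both pools (y axis) on each of the 16 arrays for Mthfd2, Adss and Impdh2, by genotype (x axis, 8 arrays each). The marked point is the dye-swap array of WT 1, at 7.41, 8.62 and 11.74, lower than every other array in each panel.

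In serine and one-carbon metabolism, Psph, the phosphatase that releases serine, fell in the polysomal pool. Its polysomal level was 12.94, 13.22, 13.42 and 13.32 in WT and 12.55, 12.74, 12.38 and 12.65 in Lck-/-, with WT 1 the lowest of its group but above every Lck-/- extract. The difference was -0.65 (SE 0.16, adjusted p = 0.0211, crossed 0.0451), lost without WT 2, 3 or 4 or without Lck-/- 3 (0.0536 to 0.0649). In the sub-polysomal pool it was -0.12 (SE 0.12, adjusted p = 0.511). By mean level, Psph was at 12.76, 12.95, 13.00 and 13.04 in WT and 12.61, 12.67, 12.39 and 12.56 in Lck-/- (-0.38, SE 0.12, adjusted p = 0.0459, crossed 0.0548). It was lost without WT 2, 3 or 4 or Lck-/- 3 or 4 (0.0947 to 0.136). A second probe of Psph gave -0.87 (SE 0.15, adjusted p = 0.0054 over all probes) in the polysomal pool and -0.06 (SE 0.16) in the sub-polysomal pool.

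Mthfd1, the cytosolic enzyme that interconverts folate-bound carbon, rose in the sub-polysomal pool. The level there was 11.86, 11.71, 11.58 and 11.89 in WT and 12.54, 12.31, 12.30 and 12.31 in Lck-/-, all 4 above WT. The difference was 0.61 (SE 0.13, adjusted p = 0.00954). Crossed, WT 1 and 2 became 11.31 and 12.26, still under every Lck-/- extract, and the adjusted p was 0.0715. The polysomal difference was 0.14 (SE 0.15, adjusted p = 0.541). The mean level was 12.45, 12.36, 12.25 and 12.34 in WT and 12.74, 12.80, 12.69 and 12.67 in Lck-/- (0.37, SE 0.11, adjusted p = 0.0361, crossed 0.0769), a call lost without any 1 extract other than Lck-/- 1 (0.0529 to 0.0901).

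The others of this step were not called in either pool. Phgdh, which opens the serine pathway, had a mean difference of 0.20 (SE 0.15) and Psat1, the transaminase, had -0.18 (SE 0.20). Shmt1, the cytosolic hydroxymethyltransferase, had a sub-polysomal difference of 0.43 (SE 0.15, adjusted p = 0.0658), and the mitochondrial Shmt2 had a mean difference of -0.33 (SE 0.12, adjusted p = 0.0826). Mthfd1l, the mitochondrial formate-making enzyme, had a mean difference of 0.24 (SE 0.16), but -0.14 by a dimmer second probe.

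**Figure D3:**
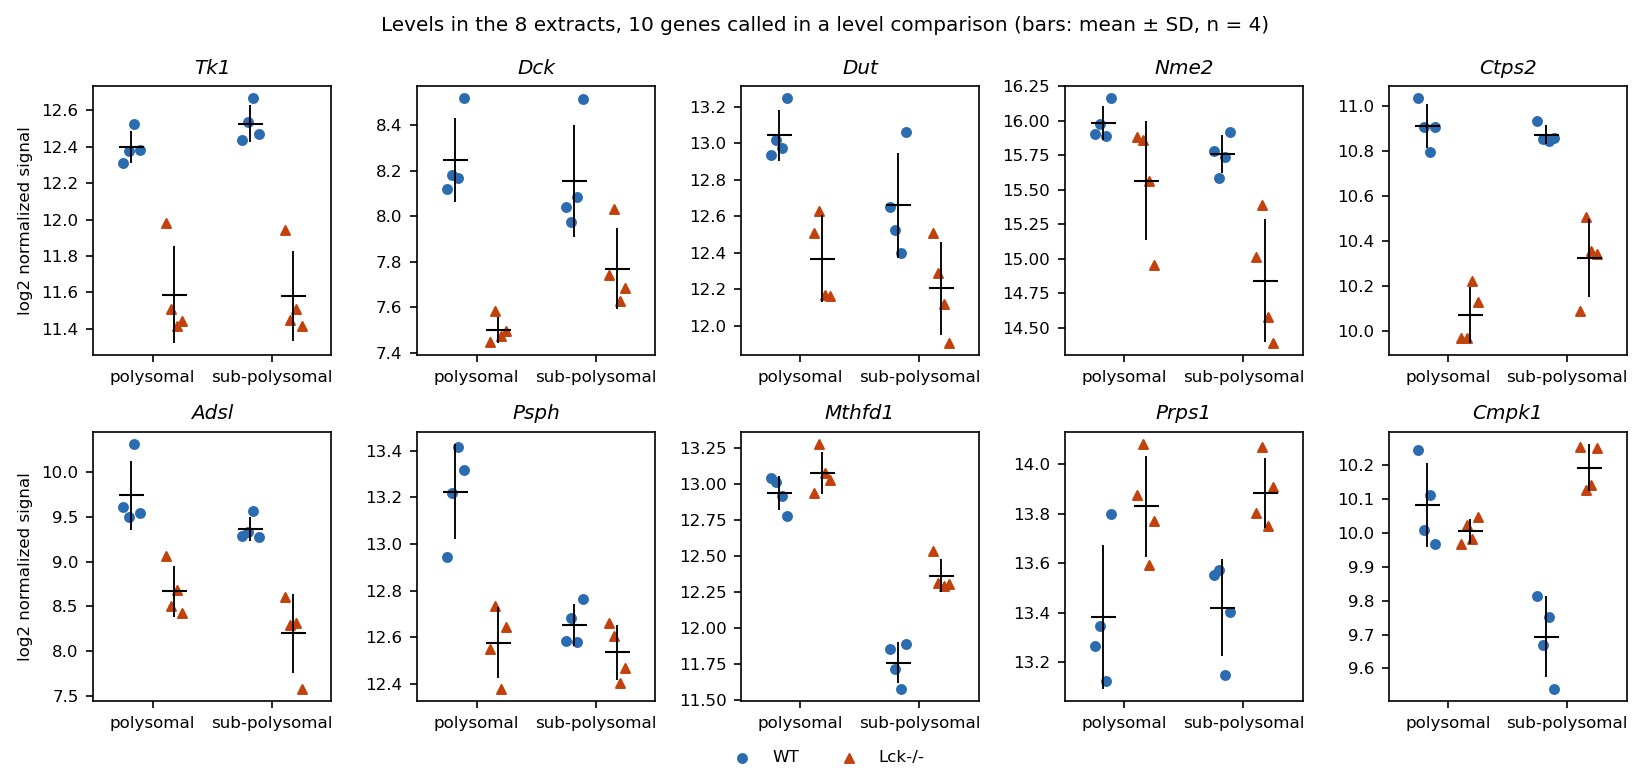
Log2 normalised signal (y axis) of the 10 genes called in a level comparison, in the polysomal and sub-polysomal pools (x axis), with 1 point per extract (WT circles, Lck-/- triangles) and bars for the mean and SD of 4. Both pools are apart for Tk1, Ctps2 and Adsl, and for Cmpk1 and Mthfd1 the sub-polysomal pool is apart while the polysomal points overlap.

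The distribution between pools differed in few of these genes, and fewer when the dye swaps were crossed. Of 36 genes tested, Rrm1 and Cmpk1 had a lower ratio in Lck-/- and none a higher one, beside 3.86% of all 8263 genes (1.05% lower and 2.81% higher). Cad, Tyms and Dck were too dim for a ratio. The median difference of the 36 was -0.08, beside -0.04 for all genes, and by step it was -0.10 in serine and one-carbon metabolism, -0.05 in purine, -0.11 in pyrimidine and -0.18 in dNTP genes. Crossed, none of the 36 was called, beside 0.496% of all genes.

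The ratio of Rrm1 was 0.66, 0.79, 0.89 and 0.72 in WT and 0.29, -0.07, 0.19 and 0.09 in Lck-/-, every WT extract being above every Lck-/- extract, as in 8.81% of all genes (5.72% lay the other way). The difference was -0.64 (SE 0.12, adjusted p = 0.018). Crossed, WT 1 became 1.44 and WT 2 became 0.01, inside the range of Lck-/-, the WT SD went from 0.10 to 0.59, and the adjusted p was 0.532. The labelled call was also lost without WT 1, 2 or 3 or Lck-/- 3 or 4 (0.0505 to 0.066).

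The ratio of Cmpk1 was 0.43, 0.34, 0.36 and 0.43 in WT and -0.29, -0.10, -0.16 and -0.20 in Lck-/-. WT lay above 0 and Lck-/- below 0 in each extract, and the difference was -0.58 (SE 0.11, adjusted p = 0.016). Crossed, WT 1 and 2 became 0.53 and 0.24, so that the groups still did not overlap, and the adjusted p was 0.171. The labelled call was lost without WT 1, Lck-/- 3 or Lck-/- 4 (0.0578 to 0.0635). In either dye orientation alone the difference was -0.62 and -0.54, with adjusted p of 0.42 and 0.22.

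Near the threshold lay Shmt1 at -0.57 (SE 0.14, adjusted p = 0.054), Psph at -0.53 (SE 0.14, adjusted p = 0.057) and Nme2 at 0.50 (SE 0.14, adjusted p = 0.0877). Shmt1 had a ratio of 1.16, 1.28, 1.18 and 1.31 in WT and 0.27, 0.81, 0.82 and 0.76 in Lck-/-, with Lck-/- 1 far below the others. The ratio of Psph was 0.36, 0.53, 0.84 and 0.55 in WT and -0.11, 0.13, -0.03 and 0.18 in Lck-/-. Its second probe had a difference of -0.81 (SE 0.14, adjusted p = 0.0138 over all probes). Second probes of the other genes gave weaker differences, 0.31 for Nme2 and -0.15 for Shmt1. That of Shmt1 was dim, above background in both pools on 4 WT and 5 Lck-/- arrays.

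**Figure D4:**
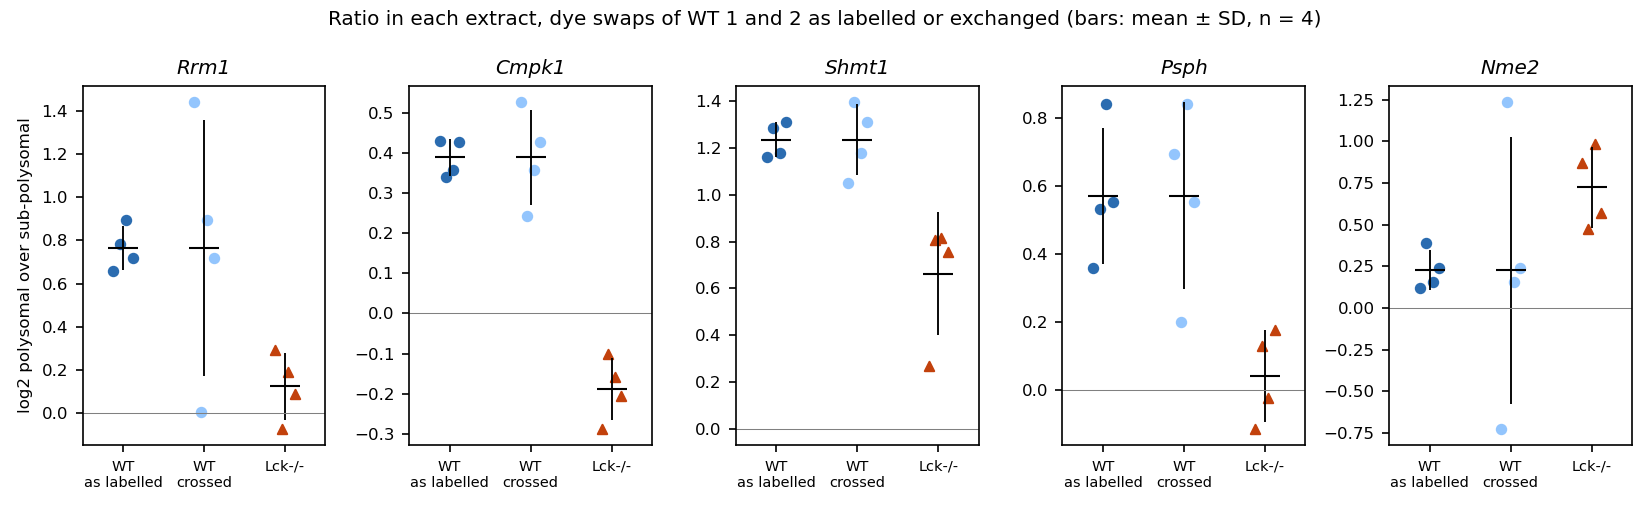
Ratio (log2 polysomal over sub-polysomal, y axis) of Rrm1, Cmpk1, Shmt1, Psph and Nme2 in each extract, for WT as labelled, WT with the dye swaps of replicates 1 and 2 exchanged, and Lck-/- (x axis), with bars for the mean and SD of 4. The spread of WT grows most in Rrm1 and Nme2, to an SD of 0.59 and 0.80, and the means do not move.

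Within each genotype, most of these mRNAs lay towards the polysomal pool. In WT, 22 of 36 had a ratio above 0 by the test and 2 below, beside 62.2% of all genes (33.5% above and 28.7% below). In Lck-/- 19 were above and 4 below, beside 56.1% of all genes (26.9% and 29.2%). The median ratio was 0.36 in WT (0.04 over all genes) and 0.26 in Lck-/- (-0.03). As arrays are normalised to the typical mRNA, 0 stands for that mRNA and not for an equal split of molecules. All 8 serine and one-carbon genes had a positive ratio in both genotypes (medians 0.50 and 0.38), and of 14 purine genes 13 did in WT and 12 in Lck-/- (0.37 and 0.41). Pyrimidine genes lay lower (0.04 and -0.19, 5 tested), and dNTP genes were spread from -0.44 to 1.35 in WT. Differences between steps were not tested.

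By the brightest probe, the highest ratios in WT belonged to Gmps, which makes GMP, and Gart, a single protein that carries several steps of purine ring synthesis. Gart had 1.51, 1.42, 1.62 and 1.62 in WT and 1.13, 1.93, 1.54 and 1.90 in Lck-/-, above 99.6% of genes in WT and 99.8% in Lck-/-. This rank rests on 1 probe, since the other probe of Gart, above background on all arrays, averaged 0.29 in WT and 0.10 in Lck-/-. Gmps had 1.43, 1.21, 1.70 and 1.89 in WT and 0.76, 1.35, 1.23 and 1.03 in Lck-/-, with overlapping genotypes, and a dimmer probe averaged 0.59 in WT and 0.52 in Lck-/-. A second probe of Ppat had a higher ratio than either gene in WT, at 1.81 (1.45 in Lck-/-), where its brightest probe had 0.31 (0.00). Of 14 further probes above background in both genotypes, 6 had a WT ratio more than 0.5 from that of the gene's brightest probe, so that a ratio and its rank hold for the probe named. Impdh1, on the way to GMP, had 0.71, 0.78, 0.74 and 0.90 in WT and 0.43, 1.03, 0.71 and 0.61 in Lck-/-. All extracts of Gart, Gmps and Impdh1 were above 0 by the brightest probe (adjusted p of 7.99e-05 or less in WT and 0.000268 or less in Lck-/-).

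In the folate and serine genes, Shmt1 averaged 1.23 in WT (adjusted p = 5.31e-06) and 0.66 in Lck-/- (0.000399). Mthfd1 had a ratio of 1.19, 1.30, 1.34 and 0.89 in WT and 0.40, 0.96, 0.78 and 0.72 in Lck-/-, and Lck-/- 2 was above WT 4. Phgdh had 0.48, 0.55, 0.64 and 0.54 in WT and 0.98, 0.62, 0.85 and 0.67 in Lck-/-, the Lck-/- extracts reaching higher (difference 0.23, SE 0.12, adjusted p = 0.316).

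Among pyrimidine genes, Umps had 0.36, 0.41, 0.41 and 0.27 in WT and 0.57, 0.08, 0.38 and 0.27 in Lck-/-, all above 0. Ctps lay below 0 in every extract, at -0.22, -0.16, -0.22 and -0.14 in WT and -0.29, -0.20, -0.35 and -0.35 in Lck-/- (adjusted p = 0.0505 in WT and 0.00668 in Lck-/-). Ctps2 had 0.10, 0.06, -0.05 and 0.05 in WT and -0.12, -0.54, -0.13 and -0.22 in Lck-/- (adjusted p = 0.716 and 0.0335), and crossed the latter was 0.152. That call was lost without WT 1 or 2 or Lck-/- 2, 3 or 4 (0.0515 to 0.14).

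Among dNTP genes, Nme1 had 1.27, 1.49, 1.19 and 1.44 in WT and 0.65, 1.50, 1.17 and 1.35 in Lck-/-, above 99.1% of genes in WT. Its other probes gave 0.42 and 0.26 in WT, so this ratio depends on the probe. Nme2 had 0.12, 0.39, 0.16 and 0.24 in WT and 0.87, 0.47, 0.99 and 0.57 in Lck-/- (adjusted p against 0 of 0.0716 and 0.000224, crossed 0.474 and 0.043). Dctd had 0.55, 0.56, 0.62 and 0.55 in WT and 0.13, -0.09, 0.68 and 0.46 in Lck-/-, where the call (adjusted p = 0.0468) was lost without Lck-/- 3 (0.256) or 4 (0.17) or any 1 WT extract (0.0555 to 0.066).

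At the other end, Dtymk had -0.36, -0.35, -0.25 and -0.81 in WT and -0.69, -0.75, -0.46 and -0.64 in Lck-/-, below 0 in all 8 extracts (adjusted p = 0.00331 and 0.000545). Both of its probes had a negative ratio, the second at -0.70 in WT and -0.67 in Lck-/-. Rrm2, the small subunit of ribonucleotide reductase, had -0.58, -0.20, -0.26 and -0.21 in WT and -0.31, -0.06, -0.45 and -0.29 in Lck-/- (adjusted p = 0.0158 and 0.0306). Crossed, these were 0.295 and 0.37. The call in WT was lost without WT 1 (0.104), and that in Lck-/- without Lck-/- 1, 3 or 4 (0.0571 to 0.142). Rrm1 and Rrm2 lay on opposite sides of 0 in WT, Rrm1 at 0.77 (adjusted p = 3.78e-05, crossed 0.00877). Tk1, lower in both pools of Lck-/-, had a ratio of -0.13 (SE 0.07) in WT and 0.01 (SE 0.07) in Lck-/-.

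**Figure D5:**
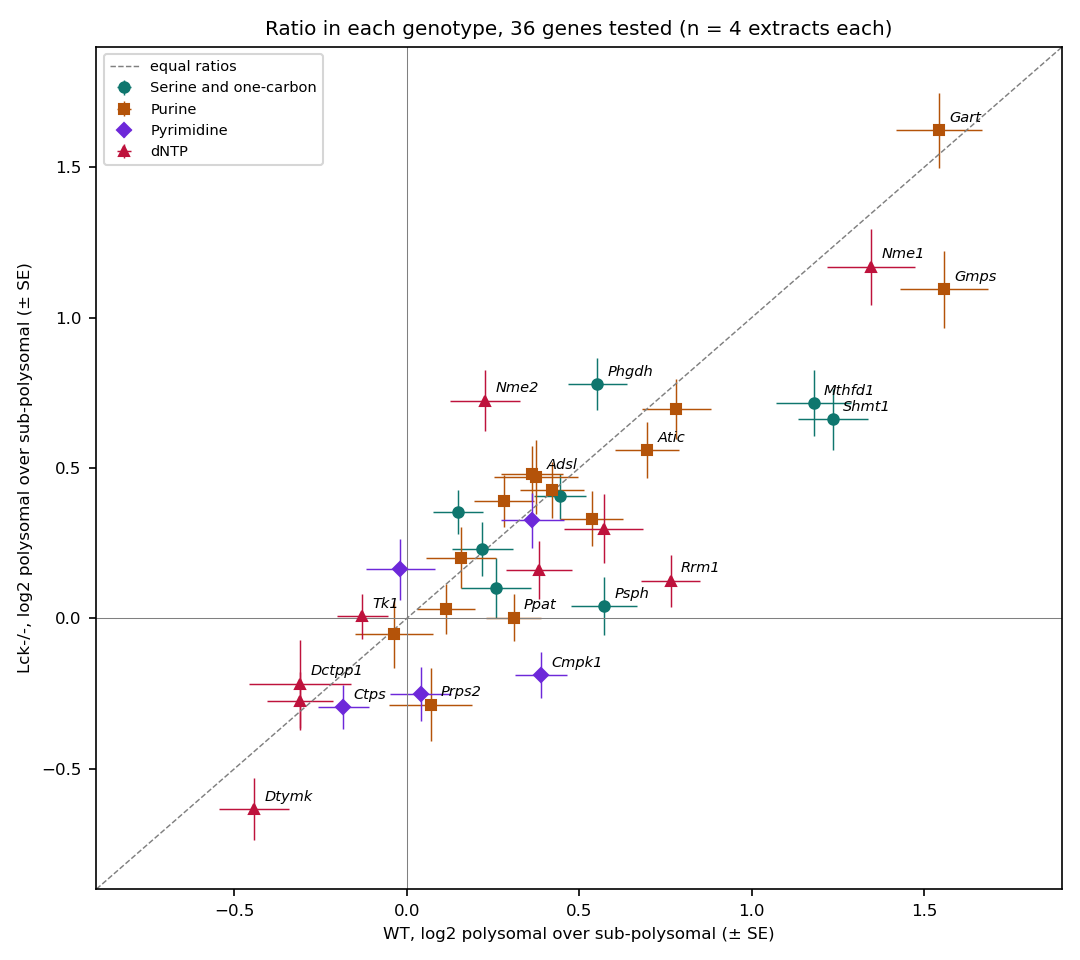
Ratio (log2 polysomal over sub-polysomal) in WT (x axis) and Lck-/- (y axis) of the 36 genes tested, each by its brightest probe, by step, with bars of 1 SE and a dashed line of equal ratios. Gart, Gmps and Nme1 are the 3 highest in both genotypes by that probe, while other probes gave 0.29 for Gart, 0.59 for Gmps and 0.42 and 0.26 for Nme1 in WT, Dtymk is the lowest in both, and Rrm1, Cmpk1 and Psph lie below the line.

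Other genes of the same pathways were read from a list of 70. By mean level, 6 of 49 tested were lower and 3 higher (median -0.09), beside 11.3% of all genes lower and 9.34% higher (median 0.04). Of the 43 that passed the filter in both genotypes, 5 were lower and 3 higher. In the polysomal pool 7 of 53 were lower and 1 higher, beside 9.37% and 5.6% of all genes, and 6 and 1 of the 50 that passed in both genotypes. In the sub-polysomal pool 5 of 49 were lower and 5 higher, beside 10.8% and 8.54%, and 5 and 4 of the 45 that passed in both genotypes. A gene called after passing in 1 genotype alone adds no independent support. None of 43 was called in the ratio, beside 3.86% of all genes. Among 13 genes of purine turnover tested, 4 were lower in mean level and 1 higher, with Gmpr2, which turns GMP back to IMP, at -0.75 (SE 0.13, adjusted p = 0.00404, crossed 0.0097). Of 16 genes of the folate and methionine cycles, 1 was lower and 2 higher. The lower was Aldh1l2, the mitochondrial enzyme that oxidises formyl-folate, at -0.80 (SE 0.15, adjusted p = 0.00546, crossed 0.00711). It passed the filter only through WT, where it is higher (6 WT and 4 Lck-/- arrays above background in both pools). Fpgs, which adds glutamates to folate and keeps it in the cell, was at 0.57 (SE 0.14, adjusted p = 0.015, crossed 0.0184). Of 12 genes around dNTP supply, Nme4, a mitochondrial nucleoside diphosphate kinase, was lower at -0.69 (SE 0.16, adjusted p = 0.0117, crossed 0.0153), and none of 8 pyrimidine turnover genes was called.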

How the data were processed

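Polysomal and sub-polysomal RNA of 8 extracts (4 WT, 4 Lck-/-) was read on 16 Agilent 2-colour arrays, 8 on each of 2 slides, with 1 array of every extract per slide. Groups were taken from the labels. Per the file headers, the deposited spot intensity values came from Agilent Feature Extraction 10.7.3.1. The authors also deposited normalised log2 ratios, used as an alternative, and per the submitters' processing notes limma was used. The other deposited columns, per the file headers, hold names, positions and spot flags.

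Intensities were corrected with normexp (offset 50), normalised by loess within arrays and Aquantile between them, and both arrays of an extract were averaged, so that n is extracts (limma 3.58.1, R 4.3.3). Genes were tested where the brightest probe was well above background on 6 of 8 arrays of at least 1 genotype (in both pools for the mean level, and in both pools and each genotype for the ratio), with lmFit and eBayes and Benjamini-Hochberg adjustment over all genes at 0.05. The number of arrays limits the precision. The fits were tested on simulated data. Deviations of same-numbered extracts of the genotypes correlated at 0.0556, -0.171, 0.259 and -0.242 in the ratio. In the mean level they correlated at -0.0658, -0.0926, 0.437 and -0.21, highest for replicate 3. Extracts were not paired, and counts with the replicate number as a block are given at the end. Members and gene lists were chosen with earlier results of these data known. Values per extract are given for genes called in a comparison of genotypes and, for the ratio against 0, for the 3 smallest p of each step. At most 4 other pathway genes are named, from those called without overlap. Alternatives were other normalisations, filters, dye orientations, slides, blocks, probes, the crossed dye swaps, left-out extracts and left-out edge spots, the last chosen after seeing the data. No genome was used here, and promoters came from RefSeq. Some marker genes are not reported here.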

Additional observations from a re-analysis of the deposited data

Results flagged for a closer look

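Of 106 groups of 4 extracts examined, 12 held an extract whose gap to the nearest of the others was, as a share of the group's range, over the critical value of Dixon's test, where chance gives about 1 in 20. In the polysomal pool these were Adsl in WT 3 (10.31, the rest 9.50 to 9.61), Tk1 in Lck-/- 1 (11.98, the rest 11.42 to 11.51) and Dck in WT 4 (8.52, the rest 8.12 to 8.18). In the sub-polysomal pool they were Mthfd1 in Lck-/- 1 (12.54, the rest 12.30 to 12.31) and Ctps2 in WT 1 (10.93, the rest 10.84 to 10.86). In the mean level they included Adsl in WT 3 (9.94, the rest 9.41 to 9.45), Tk1 in Lck-/- 1 (11.96, the rest 11.43 to 11.48) and Dck in WT 4 (8.52, the rest 8.08 to 8.13). As the mean level is the average of both pools, the groups are not independent. Their count can thus not be set against 1 in 20.

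The 4 remaining genes, not called in a level, had such an extract in the mean level. Mthfd2 in WT 1 lay at 9.74 (the rest 12.11 to 12.40), which is the extract with the low array edge. Psat1 in Lck-/- 2 lay at 14.70 (the rest 13.90 to 13.96), Adss in Lck-/- 2 at 12.01 (the rest 11.23 to 11.30) and Dctd in Lck-/- 2 at 8.53 (the rest 9.12 to 9.19).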

How the results depend on the processing

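The count of genes called was the value most open to the processing, and the cause of its changes was not tested. Percentages beside a count are the shares of all genes called in that setting. In the ratio (2 called, beside 3.86%) it was 1 with Agilent's processed signals (1.59%) and 4 with all 8 arrays required above background (5.09%). It was 1 on slide 1 (higher, 2.76%) and 0 on slide 2 (0.823%). The count was 0 with the polysomal pool in Cy5 (0.436%) or in Cy3 (0.363%). Crossed it was 0, with or without the edge spots (0.496% each), and without WT 1 and 2 it was 0 (1.04%). It was 32 with median centring (56.7% of all genes called), 36 without normalisation (72.4%), and 36 with the authors' ratios (90.3%) or 4 when those were centred (8.86%). In the polysomal pool (6 called, beside 15%) it was 14 with median centring (21.7%) and 1 without WT 1 and 2 (2.53%). It was 0 and 2 in the dye orientations (1.59% in Cy5 and 3.25% in Cy3) and 1 on slide 1 (1.54%). In the sub-polysomal pool (7 called, beside 19.3%) it was 18 with median centring (40%) and 12 with the slide as a block (23.6%). It was 2 in each orientation (7.3% and 5.3%), 2 on slide 2 (2.75%) and 4 without WT 1 and 2 (10.9%). For the mean level (9 called) it was 3 and 4 in the orientations, 5 on slide 1 and 4 without WT 1 and 2. Leaving out 1 extract gave 0 to 4 in the ratio (1.25% to 5.36%) and 3 to 11 in the mean level (10.6% to 25.5%). With the replicate number as a block the counts were 0 in the ratio (2.17%) and 6 in the polysomal pool (13.6%). They were 4 in the sub-polysomal pool (11.8%) and 4 in the mean level (16.5%). In the ratios against 0 they were 23 for WT (59%) and 20 for Lck-/- (52%).

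Against 0, the count in WT (24, beside 62.2% of all genes) was 14 in the Cy5 orientation (36.7%) and 15 without WT 1 and 2 (44%). In Lck-/- (23, beside 56.1% of all genes) it was 12 with median centring (31.6%) and 12 and 15 in the orientations (27.8% and 38.2%). It was 13 and 12 on the slides (34.1% and 37%). Crossed it was 15 with all spots (35.8%) and without the edge spots (35.6%). The count over all genes thus fell in these settings too. In WT the sign turned for Dtymk (0.74) and Rrm2 (0.80) with median centring, for both without normalisation (1.02 and 1.08), for Adsl (-0.36) and Rrm2 (0.11) on slide 1 and for Adss (-0.012) on slide 2. In Lck-/- it turned for Ctps2 (0.064) with median centring, and without normalisation for Ctps (0.12), Ctps2 (0.34) and Rrm2 (0.051). In all, 73 values were followed over 1823 alternatives. They hold 3 values in the ratio (2 called) and 7 in the polysomal pool (6 called), so not all are called genes. Of the alternatives, 1465 kept the direction and any call, 341 kept the direction only and 11 turned. In 6 an untested value moved.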
